A study of Mus musculus with 12 samples.

Results

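The genes described here encode enzymes that start mucin-type O-glycans, add, make, break down or remove sialic acid, and build heparan sulfate. They were chosen by gene symbol (Galnt, St3gal, St6gal, St8sia, Hs2st, Hs3st, Hs6st, Ndst and Neu families, with Npl, Nans, Cmas, Gne, Ext1, Ext2 and Glce). The set was proposed with results of these data in view. In all, 61 of the 18193 genes that the array's annotation pairs with a single-symbol probe set were members, and 37 of them were among the 10817 genes bright enough to be tested. The arrays measured RNA from mouse leukaemic stem cells in 4 groups of 3 arrays. Every leukaemia was grown by transplanting stem and progenitor cells (the KLS fraction) that had been infected with an oncogene. Msi2 mutant bcCML (blast crisis chronic myelogenous leukaemia) came from Msi2 Gt/Gt cells carrying BCR-ABL and NUP98-HOXA9, and wild-type bcCML from wild-type cells carrying that same pair. Msi2 mutant AML (acute myelogenous leukaemia) came from Msi2 Gt/Gt cells carrying MLL-AF9, and wild-type AML from wild-type cells carrying it. Gt stands for a trap allele of Msi2, the gene of Musashi2, a protein that binds RNA, and the strain field of every sample, wild-type included, names the trap strain B6;CB-Msi2Gt(pU-21T)2Imeg. The bcCML cells were sorted as lineage-negative, the AML cells as lineage-negative, Sca1-negative and Kit-positive, so the oncogenes and the sort cannot be told apart in any comparison between the leukaemias. The sources used here say neither which hosts received the cells nor whether animals were pooled.

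Mucin-type O-glycans begin in the Golgi, where a family of GalNAc-transferases places the first sugar on serine or threonine, and other enzymes then lengthen the chain. Sialyltransferases cap the ends of such chains, of N-glycans and of glycolipids with sialic acid, and on blood cells these caps form part of the selectin ligands used in homing and are read by Siglec receptors. Heparan sulfate is a chain polymerised by Ext1 and Ext2 on core proteins such as syndecans and glypicans, then modified by an epimerase and by N-, 2-O-, 6-O- and 3-O-sulfotransferases, whose pattern sets which growth factors and chemokines bind.

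Promoter sequence is shown for the 3 members called between Msi2 mutant and wild-type AML (Galnt7, Galnt6 and Npl) and for Hs3st3b1, which had the largest difference in bcCML. Each sequence is the 250 bases before the RefSeq start of the gene in GRCm38.p6, on the minus strand, 5′ to 3′. They lie at chr8:57653056-57653305 (Galnt7), chr15:100729377-100729626 (Galnt6), chr1:153549715-153549964 (Npl) and chr11:63922285-63922534 (Hs3st3b1). Capitals mark the only match to any of the 5 motifs searched.
Galnt7: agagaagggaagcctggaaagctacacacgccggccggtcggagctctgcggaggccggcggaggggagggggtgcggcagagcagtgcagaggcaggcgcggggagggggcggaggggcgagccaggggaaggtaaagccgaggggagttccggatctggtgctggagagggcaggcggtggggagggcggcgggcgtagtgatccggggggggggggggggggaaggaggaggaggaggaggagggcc
Galnt6: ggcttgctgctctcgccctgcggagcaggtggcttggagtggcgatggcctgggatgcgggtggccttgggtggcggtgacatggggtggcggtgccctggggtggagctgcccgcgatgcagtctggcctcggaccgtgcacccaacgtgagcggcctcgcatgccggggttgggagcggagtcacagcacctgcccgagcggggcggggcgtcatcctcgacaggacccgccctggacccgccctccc
Npl: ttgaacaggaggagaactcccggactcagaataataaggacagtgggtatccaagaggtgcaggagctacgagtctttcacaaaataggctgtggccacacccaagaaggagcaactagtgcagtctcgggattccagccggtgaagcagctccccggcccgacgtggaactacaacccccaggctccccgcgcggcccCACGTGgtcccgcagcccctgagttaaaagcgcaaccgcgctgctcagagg
Hs3st3b1: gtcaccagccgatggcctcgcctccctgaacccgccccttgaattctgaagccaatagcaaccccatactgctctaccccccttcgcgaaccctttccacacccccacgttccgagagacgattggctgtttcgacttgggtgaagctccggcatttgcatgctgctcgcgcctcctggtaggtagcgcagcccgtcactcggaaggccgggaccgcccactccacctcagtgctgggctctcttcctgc

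The G and C content of these windows was 73.6% for Galnt7, 72.8% for Galnt6, 59.6% for Npl and 62.4% for Hs3st3b1, against a median of 52.4% over all 32851 promoters of the table. Short motifs of factors active in myeloid leukaemia were searched on both strands. They were GAGGAA (PU.1), which 23.3% of all promoters hold, TTGCNNAA (C/EBP, 9.56%), TGTGGT (Runx1, 14%), CACGTG (the E-box bound by Myc, 6.02%) and TGATTNAT (Hox with Pbx, 2.82%). The match was CACGTG in Npl, from 51 to 46 bases before the start. A match is a string of letters and says nothing of binding.

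The trapped gene checked the labels. Msi2 measured 52.9, 69.1 and 86.9 intensity units on Msi2 mutant AML arrays, against 325, 181 and 430.3 on wild-type AML arrays. In bcCML it measured 487, 721 and 608 units on mutant arrays, against 2583, 4319 and 4579 on wild-type arrays. The log2 difference was -2.11 ± 0.34 (SE) in AML and -2.63 ± 0.34 in bcCML (limma adjusted p = 0.0211 and 0.0200), and the groups did not overlap in either leukaemia. Over all tested genes bcCML and AML separated on principal component 1 (76.2% of the variance), and AML mutant array 1 stood apart on component 2 (4.90%). Its 8 monocyte and macrophage markers summed to 8473 units, against 27630 and 18377 on the other mutant AML arrays and 15319 to 26843 on wild-type AML arrays. Kit lay between 78.2 and 546 units on bcCML arrays and between 169 and 435 on AML arrays, and Sca1 was not paired in the annotation. Of the T cell, NK cell and B cell markers, Cd3e, Cd3g, Cd3d, Cd4, Cd8a, Pax5 and Ms4a1 did not pass the filter. Nkg7 read 1482 to 10650.1 units over all arrays, Cd79b 470 to 1098 on AML arrays and 11.4 to 203 on bcCML arrays, Cd79a at most 26.0, and Gzma 969 on mutant bcCML array 2. Without AML mutant array 1 the members called numbered 3 in AML, 1 in bcCML, 5 for the mean of both Msi2 differences and 0 for their difference. They numbered 23 between wild-type leukaemias and 17 between mutant ones. These totals were those found with it, but only 22 of the 23 and 16 of the 17 calls were the same. Among mutants 13 were higher and 4 lower in bcCML, against 14 and 3 with that array. Calls over all genes moved too. Without that array they numbered 182 in AML, 10 in bcCML, 122 shared and 2 for the difference. With it they numbered 164, 15, 51 and 0. Between wild-type leukaemias they numbered 4351 without it and 3996 with it, and between mutant ones 4689 and 4875.

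Expression of the set was uneven across the families. Testing required more than 16 units on 3 or more of the 12 arrays, and the lowest value on any array was 4.49. Of the GalNAc-transferases 10 of 18 members were tested, of the alpha-2,3-sialyltransferases 6 of 6, of the alpha-2,6-sialyltransferases acting on GalNAc 4 of 6 and of those acting on galactose 1 of 2, and of the alpha-2,8-sialyltransferases 1 of 6. All 4 genes of sialic acid metabolism and 2 of 3 sialidases were tested, and in heparan sulfate 9 of 16. Of the 24 members not tested, 22 were below 16 units on every array and St6galnac5 and St8sia6 exceeded it on 1 array. No untested member reached more than 21.9 units. The 22 were Galnt5, Galnt13, Galnt14, Galnt15, Galnt16, Galnt18, Galntl5, Galntl6, St6gal2, St6galnac1, St8sia1, St8sia2, St8sia3, St8sia5, Neu2, Ndst3, Ndst4, Hs6st3, Hs3st2, Hs3st3a1, Hs3st4 and Hs3st6. The heat map shows the tested genes on every array.

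**Figure D1:**
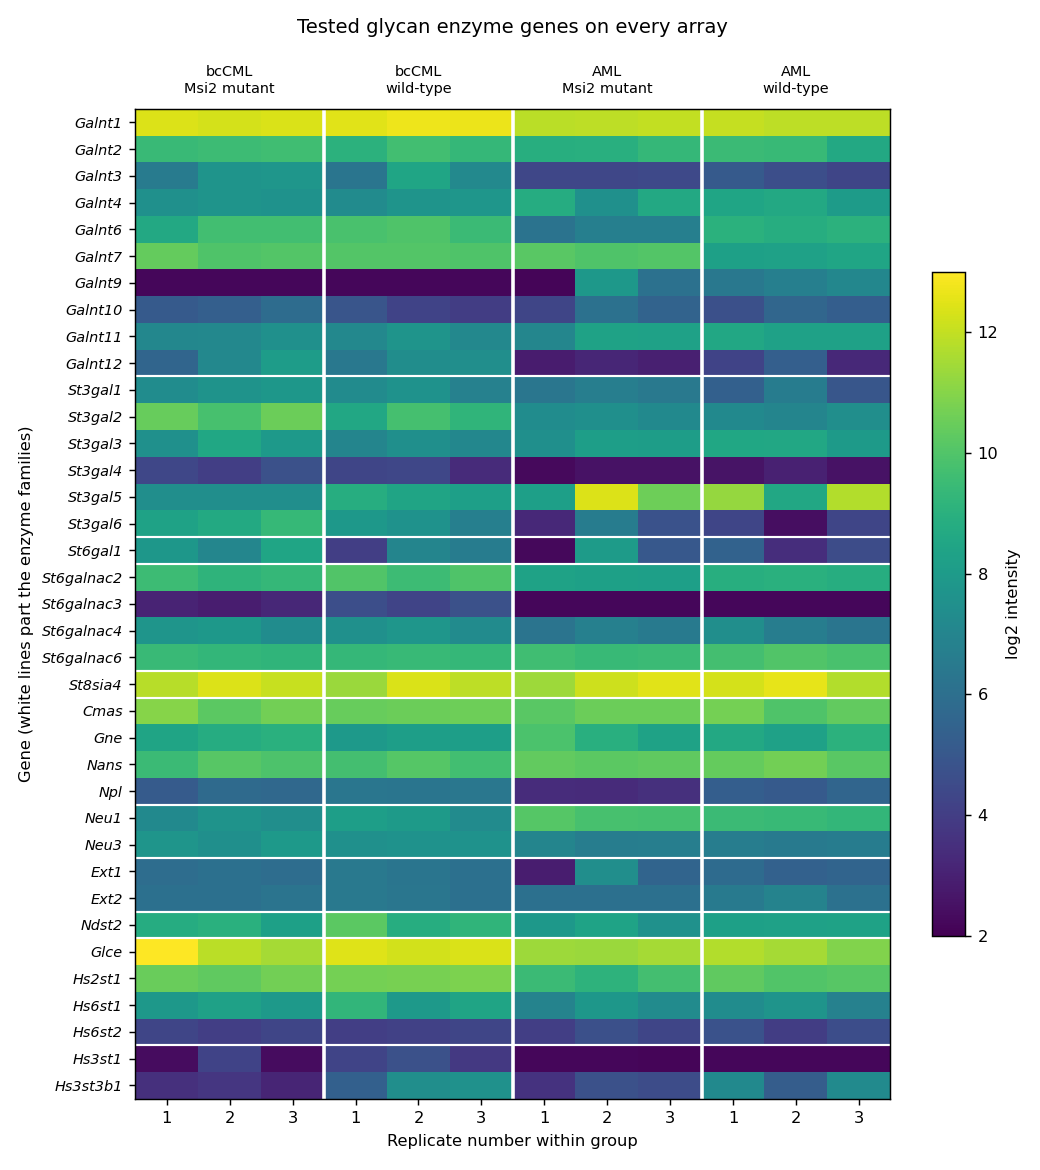
Log2 intensity (colour) of the 37 tested glycan enzyme genes (rows, parted into enzyme families by white lines) on each of the 12 arrays (columns, by group and replicate number). Galnt1, St8sia4 and Glce are bright in all 4 groups, Galnt9 is at the floor in both bcCML groups, and St3gal5 and St6gal1 vary visibly among the AML arrays.

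Few of these genes differed with Msi2 genotype. In AML, 3 of the 37 tested members passed an adjusted p of 0.05 (limma, Benjamini-Hochberg over all 10817 genes), where 1.52% of all genes did. Galnt7 was higher (0.379% of all genes) and Galnt6 and Npl were lower (1.14% of all genes). In bcCML 1 member, St6galnac3, passed and was lower, where 0.139% of all genes passed in either direction with 0.102% lower and 0.037% higher. With the replicate number as a block in all 12 arrays St6galnac3 was still the 1 member called in bcCML, among 27 genes in place of 15, and with the block in the 6 bcCML arrays alone 0 members and 0 genes were called. At an unadjusted p under 0.05 the members numbered 9 in AML (14.2% of all genes) and 9 in bcCML (8.32%). For the shared effect, the mean of both Msi2 differences, 5 members passed, against 0.471% of all genes. Galnt7 was the 1 higher (0.102% of all genes), and Npl, Galnt6, St6galnac3 and Hs3st3b1 were the 4 lower (0.37%). Earlier results of these data had already named Npl, Hs3st3b1 and St6galnac3 for their Msi2 differences, so their differences are given below as descriptions with no p, and nothing is read from their part in the counts. The median log2 difference over the 37 members was -0.11 in AML, 0 in bcCML and -0.10 for the shared effect, against -0.05, -0.02 and -0.04 over all genes tested.

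Arrays of the Msi2 mutant and wild-type groups did not overlap for 11 members in AML, 3 higher and 8 lower in mutants, where 16.7% of all genes did not overlap, 5.18% higher and 11.6% lower. In bcCML they did not overlap for 13 members, 6 higher and 7 lower, where the shares of all genes were 15.9%, 5.83% and 10.1%. Hs3st3b1, Npl, St6galnac2 and Hs2st1 were the 4 members lower without overlap in both leukaemias (1.66% of all genes), and no member was higher without overlap in both (0.388% of all genes). Titles number the samples as biological replicates without saying how they were raised, so p-values measure the spread between these samples. In RNA from sorted populations, fewer cells of a type and less RNA per cell cannot be told apart.

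**Figure D2:**
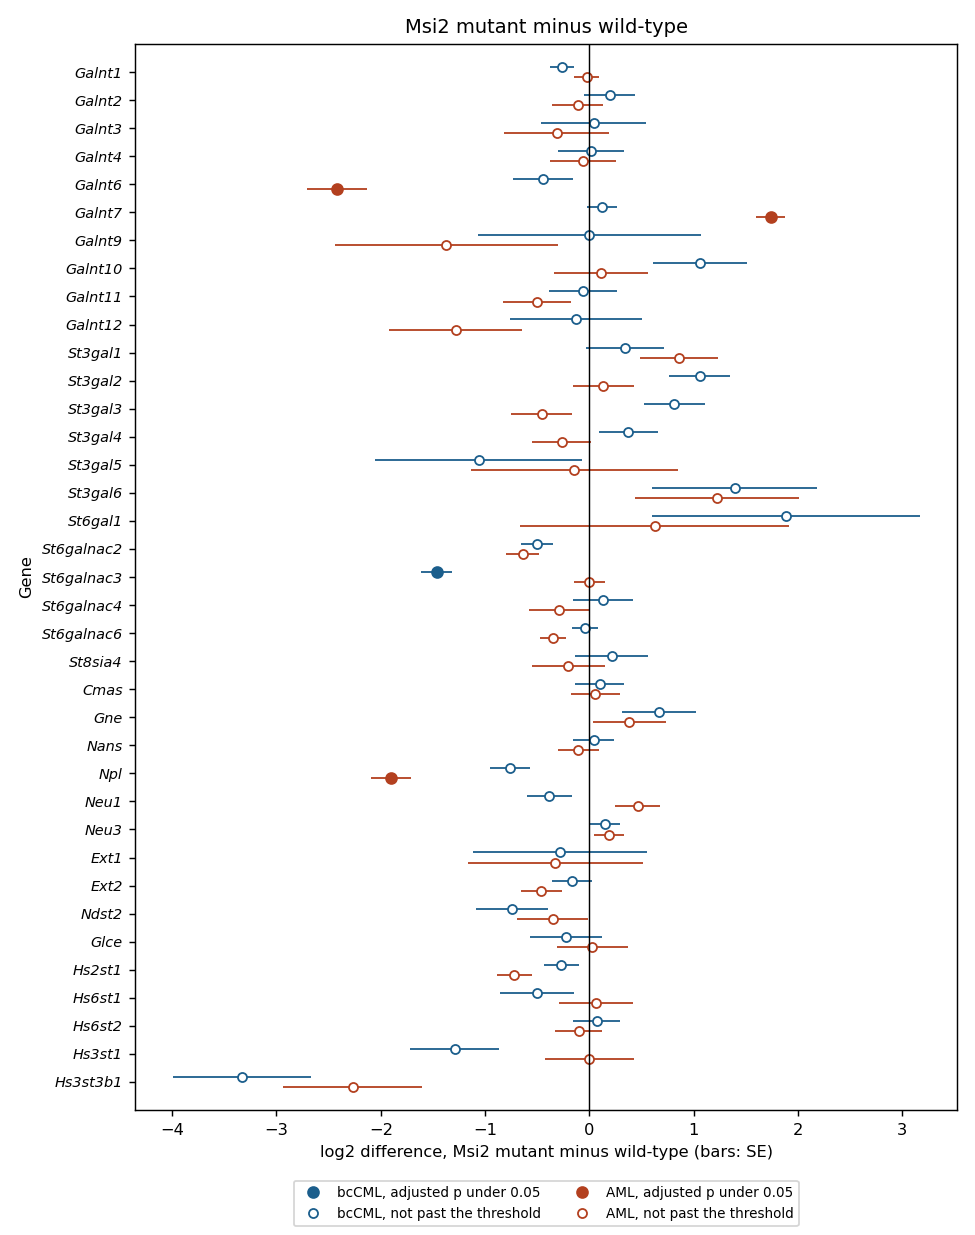
Msi2 mutant minus wild-type log2 difference (horizontal axis, bars show the SE) for the 37 tested members in bcCML (blue) and AML (red), with filled symbols past the adjusted p of 0.05. Filled symbols are Galnt7 on the right and Galnt6 and Npl on the left for AML, and St6galnac3 on the left for bcCML.

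Among the genes that start O-glycans, Galnt7 rose and Galnt6 fell in Msi2 mutant AML. Galnt7 encodes a transferase that prefers peptides already carrying GalNAc. It measured 1161, 1012 and 1062 units on mutant AML arrays, against 304, 318 and 349 on wild-type AML arrays. The mutant arrays lay together, far above the wild-type ones. The log2 difference was 1.74 ± 0.14 (SE; limma adjusted p = 0.00193), which had the smallest p of all 10817 genes, and 2 further probe sets of the gene gave 2.59 and 2.64. In bcCML Galnt7 measured 1353, 995 and 1053 units on mutant arrays, against 1062, 1053 and 992 on wild-type arrays, which overlap (0.12 ± 0.14, adjusted p = 0.894). On this probe set mutant AML lay at the level of both bcCML groups and wild-type AML was low. On both further probe sets mutant AML was also above wild-type AML but below every bcCML array, with mutant bcCML minus mutant AML differences of 0.52 and 0.97. The difference between the Msi2 effects, bcCML minus AML, was -1.62 ± 0.20 on the log2 scale and fell just short of the threshold (adjusted p = 0.0514).

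Galnt6, a close relative of Galnt3 in sequence, measured 73.0, 108 and 108 units on mutant AML arrays, against 526, 463 and 537 on wild-type AML arrays. The log2 difference was -2.42 ± 0.29 (limma adjusted p = 0.00505), from the 1 probe set of the gene that passed the filter. In bcCML it measured 394, 812 and 821 units on mutant arrays, against 929, 1001 and 715 on wild-type arrays, overlapping (-0.45 ± 0.29, adjusted p = 0.728). Mutant AML was therefore the lowest of the 4 groups. The difference between the Msi2 effects was 1.97 ± 0.41 (adjusted p = 0.138). Both AML calls were kept on leaving out any 1 array (highest adjusted p 0.0096 for Galnt7 and 0.0298 for Galnt6), and both ended where the 6 AML arrays were fitted alone (adjusted p = 0.0806 for each), a fit that called none of the 10817 genes. In the shared effect Galnt7 was higher (0.93 ± 0.10, adjusted p = 0.00795) and Galnt6 lower (-1.43 ± 0.20, adjusted p = 0.0241), and both calls ended with the replicate number as a block (adjusted p = 0.0744 and 0.0799). Galnt6 was also lost from the shared calls without wild-type AML array 1 (adjusted p = 0.0638) and without any of wild-type bcCML arrays 1 to 3 (0.0742, 0.0508 and 0.0626). Markers of cell types moved in the same AML comparison. Summed neutrophil markers ran from 94612 to 126841 units on mutant arrays and from 67735 to 81346 on wild-type arrays, and summed myeloid progenitor markers from 127241 to 131439 and from 60942 to 111878, neither overlapping. Singly, 5 of 6 neutrophil and 7 of 7 progenitor markers had positive estimates, against 42.9% of all genes. Mmp8 went the other way, with 9.92, 23.9 and 15 units on mutant arrays, against 132, 288 and 97.1. Mutant and wild-type AML arrays overlapped for Ptprc, Kit, Myb and Ctsg among the progenitor markers and for Ngp among the neutrophil markers. They did not overlap for Mpo, Prtn3 and Elane, or for S100a8, S100a9, Ltf and Camp. Of 8 monocyte and macrophage markers 3 had positive estimates in AML (median -0.41) and 1 was called lower. Their sums overlapped between mutant and wild-type AML arrays. The part of all these markers in the AML differences was not tested.

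The other 8 tested GalNAc-transferases did not pass in either Msi2 comparison. Galnt1, a broadly expressed initiating enzyme, measured 5469, 5035 and 5326 units on mutant bcCML arrays, against 5797, 6661 and 6586 on wild-type bcCML arrays. The arrays did not overlap, and the log2 difference of -0.26 ± 0.12 did not pass (adjusted p = 0.585). Galnt12 measured 7.23, 9.03 and 7.73 units on mutant AML arrays, all below 16, against 18.8, 40.4 and 9.58 on wild-type AML arrays, without overlap (adjusted p = 0.412). Galnt10, like Galnt7 an enzyme that prefers GalNAc-carrying peptides, measured 34.6, 40.2 and 58.4 units on mutant bcCML arrays, against 30.0, 18.6 and 16.1 on wild-type ones. Its log2 difference of 1.06 ± 0.45 did not pass (adjusted p = 0.574). Galnt2, another broadly expressed initiating enzyme, measured 481, 497 and 646 units on mutant AML arrays, against 714, 686 and 399 on wild-type AML arrays, which overlap.

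Of the 12 sialyltransferases tested none passed in AML, and the 1 member counted in bcCML, St6galnac3, is described without a p. St6galnac3 adds alpha-2,6-linked sialic acid to the GalNAc of short sialylated O-glycans. It measured 8.5, 7.42 and 9.46 units on mutant bcCML arrays, against 25.2, 18.9 and 26.2 on wild-type bcCML arrays, at least 1.45-fold lower (log2 difference -1.46 ± 0.15). Every AML array read between 4.51 and 4.52, the floor, so the gene passed the filter through wild-type bcCML alone. Its level there is just above the filter, and a brighter-by-mean probe set of the gene that did not pass the filter gave -0.11 in bcCML.

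St6galnac2, which acts on the GalNAc of O-glycans, was lower without overlap in mutants of both leukaemias. It measured 323, 309 and 297 units on mutant AML arrays, against 482, 499 and 467 on wild-type AML arrays, and 739, 571 and 645 units on mutant bcCML arrays, against 1029, 746 and 1006 on wild-type bcCML arrays. The log2 differences were -0.64 ± 0.15 in AML (adjusted p = 0.0812), -0.50 ± 0.15 in bcCML (adjusted p = 0.422) and -0.57 ± 0.11 shared (adjusted p = 0.0533), none past the threshold. Leaving out bcCML wild-type array 2 brought the shared value to -0.65 (adjusted p = 0.0437). St6galnac6, which sialylates gangliosides, measured 788, 679.98 and 730.2 units on mutant AML arrays, against 850.4, 1033 and 917 on wild-type ones, a log2 difference of -0.35 ± 0.13 (adjusted p = 0.244).

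Of the alpha-2,3-sialyltransferases, 5 of 6 had positive estimates in bcCML (median 0.59) and none passed. St3gal2, which caps gangliosides and O-glycans, measured 1377, 879 and 1495 units on mutant bcCML arrays, against 386, 874 and 593 on wild-type bcCML arrays, a log2 difference of 1.06 ± 0.29 (adjusted p = 0.346). The lowest mutant and the highest wild-type array nearly touched. St3gal3 measured 184, 374 and 245 units on mutant bcCML arrays, against 128, 180.1 and 135 on wild-type ones (0.81 ± 0.29, adjusted p = 0.531). In AML St3gal3 differed by -0.46 ± 0.29 and the difference between the leukaemias of 1.27 ± 0.41 did not pass (adjusted p = 0.369).

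In sialic acid metabolism, the Npl arrays of Msi2 mutants lay below those of wild-type cells in both leukaemias, and the gene is in the count of calls for AML but not in that for bcCML. Npl encodes the lyase that splits free sialic acid. It measured 10.6, 10.3 and 11.6 units on mutant AML arrays, all below the filter, against 39.4, 34.4 and 48.7 on wild-type AML arrays, at least 2.52-fold lower. In bcCML it measured 35.3, 55.6 and 52.3 units on mutant arrays, against 80.0, 77.1 and 81.5 on wild-type arrays (log2 difference -0.76 ± 0.19). Mutant bcCML cells lay near wild-type AML cells. Gne, whose product is the rate-limiting enzyme of sialic acid synthesis, Nans, which makes the phosphorylated sugar, and Cmas, which activates it as CMP-sialic acid, had log2 differences from -0.11 to 0.38 in AML and from 0.04 to 0.67 in bcCML. None of these 3 passed (adjusted p 0.655 or above). Neu1, the lysosomal sialidase, measured 1094, 881 and 856 units on mutant AML arrays, against 729, 684 and 630.2 on wild-type AML arrays, without overlap (0.46 ± 0.21, adjusted p = 0.368). In bcCML its arrays overlapped (-0.38 ± 0.21, adjusted p = 0.677). Neu3, the sialidase of the plasma membrane, differed by 0.19 ± 0.15 in AML and 0.15 ± 0.15 in bcCML.

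On the probe sets used, all 9 tested heparan sulfate genes had negative shared estimates (median -0.31), 7 of 9 being negative in AML and 8 of 9 in bcCML. The other 8 beside Hs3st3b1 were not called. A dimmer probe set of Ext1 gave a shared difference of 0.44 (0.65 in AML and 0.22 in bcCML), and one of Hs6st2 gave 0.02. The common direction therefore depends on the choice of probe set. Over all genes 42.8% of the shared estimates were positive, and over the 37 members 37.8% were. Hs3st3b1, whose product adds the 3-O-sulfate late in chain modification, measured 11.5, 13.5 and 8.69 units on mutant bcCML arrays, against 41.4, 175 and 188 on wild-type bcCML arrays. It was at least 6.93-fold lower there (log2 difference -3.33 ± 0.66). In AML it measured 12.4, 26.3 and 23.9 units on mutant arrays, against 151, 37.9 and 152 on wild-type arrays (-2.27 ± 0.66). Wild-type arrays varied widely, with 1 low array in each leukaemia, and still none overlapped with mutants. Its shared difference was -2.80 ± 0.47. The gene lies on chromosome 11, which also carries Msi2, as do 2 other tested members, St6galnac2 and Galnt10.

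Hs2st1, the 2-O-sulfotransferase, measured 716, 550.4 and 827 units on mutant AML arrays, against 1264, 1037 and 1114 on wild-type AML arrays. The log2 difference of -0.72 ± 0.17 did not pass (adjusted p = 0.0739), and its 3 further probe sets gave -0.72, -0.64 and -0.52. On bcCML arrays it measured 1417, 1279 and 1622 units in mutants, against 1689, 1693 and 1799 in wild-type cells (-0.27 ± 0.17, adjusted p = 0.718). On this probe set the arrays of mutants were lower without overlap in both leukaemias, and the shared difference was -0.49 ± 0.12 (adjusted p = 0.107). In bcCML the further probe sets gave -0.26, 0.19 and -0.10, and mutant and wild-type arrays overlapped on each. Ext2, a subunit of the polymerase, measured 65.9, 67.2 and 65.9 units on mutant AML arrays, against 92.8, 119 and 68.6 on wild-type ones (-0.46 ± 0.19, adjusted p = 0.317). Hs3st1, which completes the antithrombin-binding site of heparin, measured 5.21, 18.5 and 5.14 units on mutant bcCML arrays, against 19.1, 26.6 and 14.3 on wild-type ones, which overlap (adjusted p = 0.468). Glce, the epimerase, Ndst2, an N-sulfotransferase required for mast cell heparin, Hs6st1, Hs6st2 and Ext1 did not pass either.

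**Figure D3:**
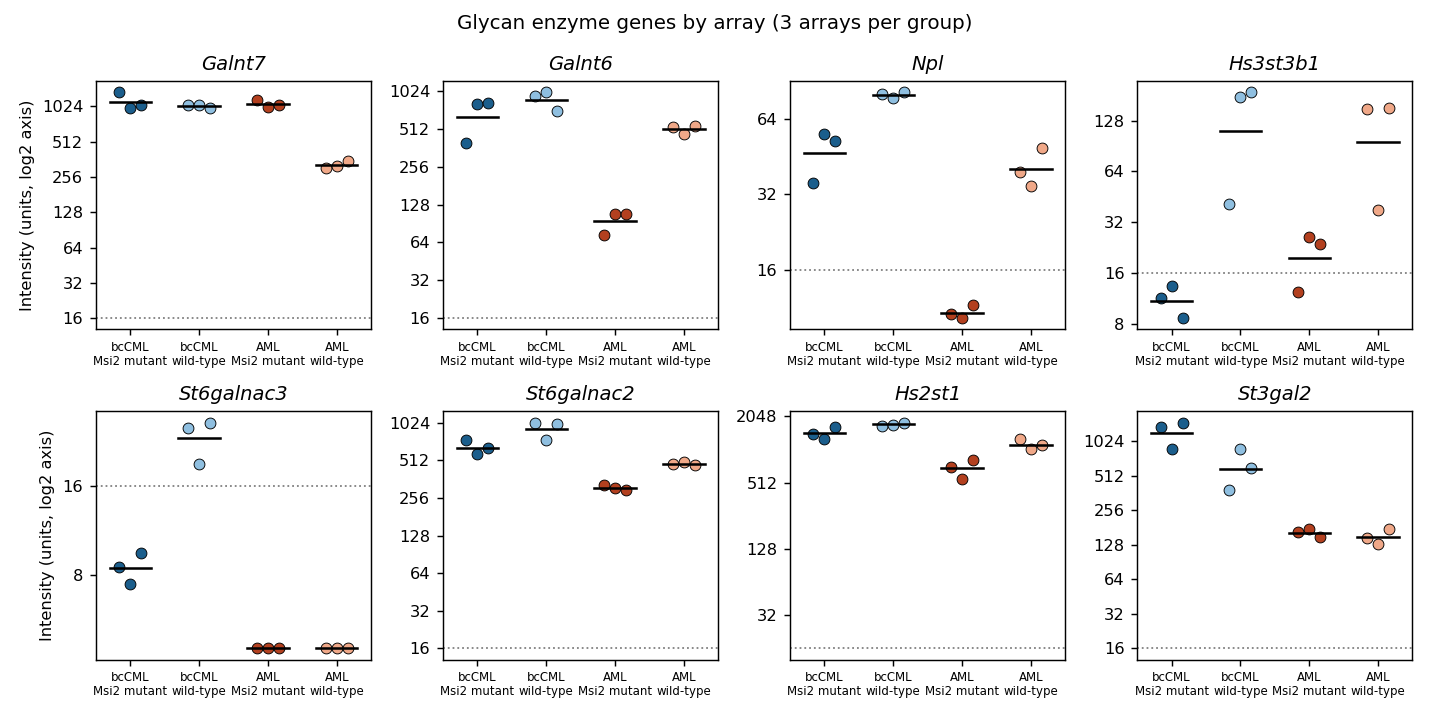
Intensity (log2 axis) of 8 members on each array (points) with the geometric mean of each group (bars), for bcCML (blue) and AML (red), Msi2 mutant left of wild-type, and the filter level of 16 units as a dotted line. Galnt7 is low in wild-type AML alone and Galnt6 in mutant AML alone, and Npl and Hs3st3b1 are lower in mutants of both leukaemias.

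Whether the Msi2 effect differed between the leukaemias was tested as the bcCML difference minus the AML difference. No member passed in limma, as no gene of the 10817 did (0%), while 7 members had an unadjusted p under 0.05, where 9.37% of all genes did. They were Galnt7, St6galnac3, Galnt6, Npl, St3gal3, Neu1 and St3gal2. Galnt7 had the smallest p of all genes. Of the 19 alternative fits 7 called 1 member and 1, without mutant bcCML array 1, called 2. The 7 were 4 other settings and the fits without mutant AML array 2, wild-type AML array 2 or wild-type AML array 3. Over all genes, these 7 fits and the one without mutant bcCML array 1 called 3 to 21, where the main fit called 0. The shared calls depended on the fit: with the replicate number as a block, 0 of the 5 members passed, and 3 genes of all did. Leaving out a single array gave 2 shared calls where that array was wild-type AML 1 or wild-type bcCML 3, and 3 where it was mutant bcCML 1 or wild-type bcCML 1. Those fits called 4 to 19 genes of all, against 51 in the main fit.

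The leukaemias themselves differed far more. Between mutant bcCML and mutant AML 17 of 37 members passed, where 45.1% of all genes did, 14 of them higher in bcCML (23.2% of all genes) and 3 lower (21.9%). Between wild-type bcCML and wild-type AML 23 passed, where 36.9% of all genes did, 17 higher (17.7%) and 6 lower (19.3%). In all, 14 members were called the same way in both comparisons, 12 higher and 2 lower in bcCML, which is 82.4% of the calls among mutants and 60.9% of those among wild-type cells. The median difference over members was 0.66 among mutants and 0.68 among wild-type cells, against 0.03 and 0.00 over all genes. St6galnac3, Hs3st1, St3gal4 and Galnt9, the 4 members above 16 units in 1 leukaemia only, passed the filter through the leukaemia in which they are high. Galnt12, above 16 units on only 2 AML arrays, also passed through bcCML. St6galnac3, counted among the 12 higher in both comparisons, was below 16 units on every mutant array. These counts and medians are therefore descriptions. Arrays did not overlap for 21 members among mutants, 18 of them higher in bcCML, where 55.5% of all genes did not overlap and 29% were higher. They did not overlap for 27 members among wild-type cells, 19 of them higher, where 52.4% of all genes did not overlap and 25.6% were higher.

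**Figure D4:**
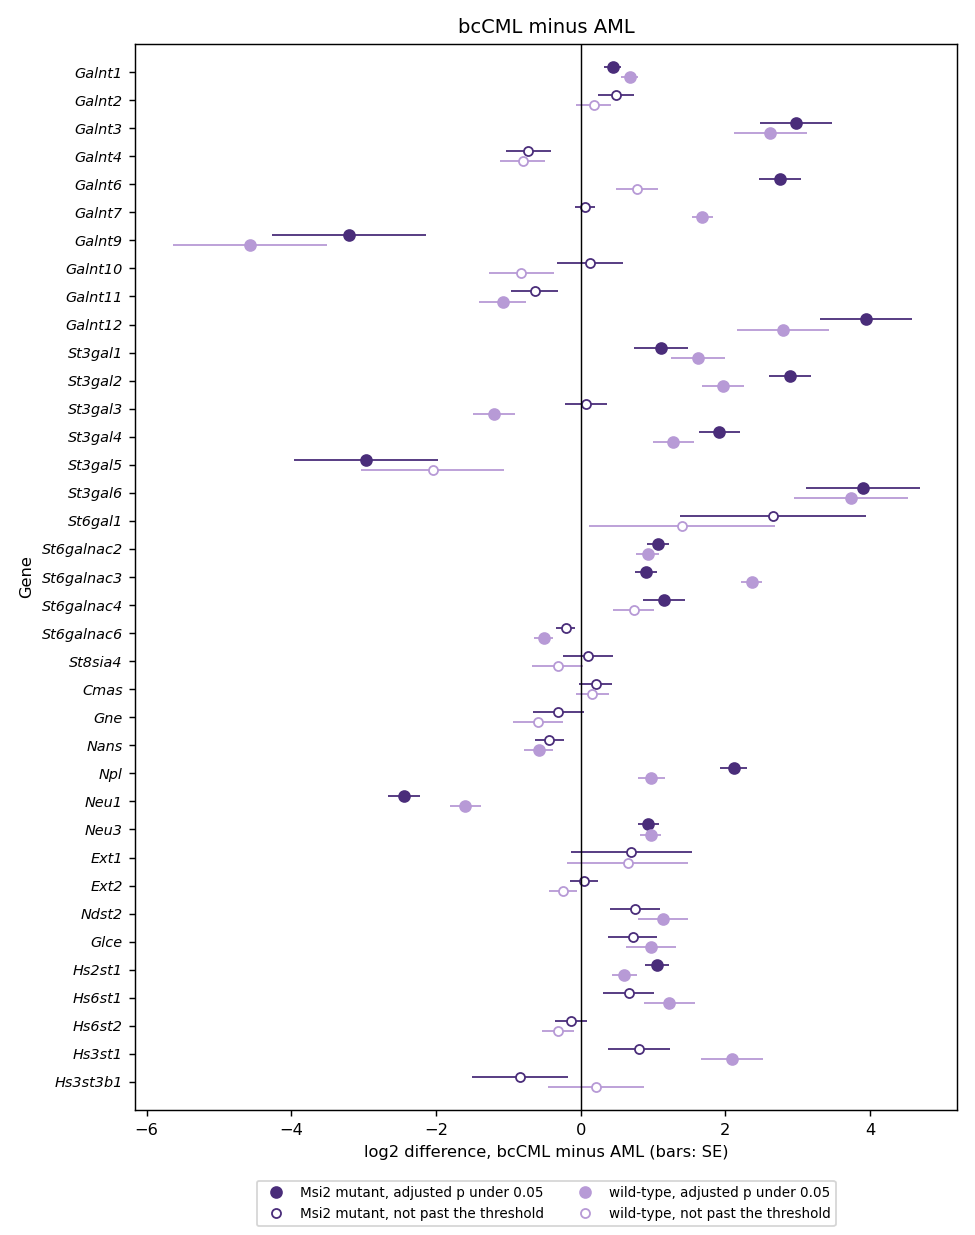
bcCML minus AML log2 difference (horizontal axis, bars show the SE) for the 37 tested members among Msi2 mutant (dark) and wild-type cells (light), with filled symbols past the adjusted p of 0.05. St3gal6, Galnt12 and Galnt3 are far to the right in both genotypes, Galnt9 and Neu1 to the left in both, and Galnt7 is at 0.06 in mutants and to the right in wild-type cells.

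Of 12 sialyltransferases tested, 7 were higher in bcCML and 1 lower among mutants, where 23.2% of all genes were higher, and 6 were higher and 2 lower among wild-type cells, where 17.7% were. Both counts of higher genes include St6galnac3 and St3gal4, which passed the filter through bcCML. Among mutants St6galnac3 was below 16 units on every array of both leukaemias, so nothing is read from its part in that count. St3gal6, which takes part in making selectin ligands, measured 325, 413 and 655 units on mutant bcCML arrays, against 9.5, 99.5 and 27.7 on mutant AML arrays (3.90 ± 0.79, limma adjusted p = 0.00255). On wild-type arrays it measured 232, 198 and 106 units in bcCML, against 19.7, 5.34 and 19.5 in AML (3.74 ± 0.79, adjusted p = 0.00417). No bcCML array of either genotype was as low as the AML arrays of that genotype. St3gal2 was higher in bcCML by 2.89 ± 0.29 among mutants (adjusted p = 2.87e-05) and by 1.97 ± 0.29 among wild-type cells (adjusted p = 0.000504). St3gal1, which caps the core of O-glycans, was higher by 1.11 ± 0.37 among mutants (adjusted p = 0.0342) and by 1.62 ± 0.37 among wild-type cells (adjusted p = 0.00683). St6galnac2 was higher by 1.07 ± 0.15 among mutants and 0.93 ± 0.15 among wild-type cells. St3gal3 differed by 0.08 ± 0.29 among mutants, without a call, and was lower in bcCML among wild-type cells (-1.20 ± 0.29, adjusted p = 0.00924). St3gal4, like St3gal6 an enzyme of selectin ligand synthesis, was dim, with 20.04, 16.3 and 26.8 units on mutant bcCML arrays, against 4.82, 5.80 and 5.81 on mutant AML arrays, at least 1.29-fold higher. In wild-type cells it measured 19.6, 20.2 and 10.2 units in bcCML, against 5.97, 8.12 and 5.79 in AML, too close to the filter level for a bound. The gene passed the filter through bcCML, and no p is given. St6galnac4, which acts on sialylated core O-glycans, was called among mutants, with 215, 234 and 165 units in bcCML, against 76.2, 112 and 88.9 in AML (1.15 ± 0.29, adjusted p = 0.00817), and not among wild-type cells (0.73 ± 0.29, adjusted p = 0.0700). St6galnac6 was lower in bcCML among wild-type cells (-0.51 ± 0.13, adjusted p = 0.0105). St8sia4, a polysialyltransferase, was among the brightest members in every group, from 2630 to 5396 units in wild-type bcCML and from 3404 to 6127 in wild-type AML, with no call.

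Among GalNAc-transferases Galnt12, Galnt3 and Galnt1 were higher in bcCML in both genotypes, and Galnt9 was at the floor there. Galnt3, which glycosylates the hormone FGF23, measured 78.4, 357 and 143 units on wild-type bcCML arrays, against 35.2, 24.8 and 19.6 on wild-type AML arrays (2.62 ± 0.50, adjusted p = 0.00238). Among mutants it was 2.98 ± 0.50 higher in bcCML (adjusted p = 0.000833), where a dimmer second probe set gave -0.06. Galnt12 measured 83.7, 166 and 174 units on wild-type bcCML arrays, a log2 difference of 2.79 ± 0.64 against wild-type AML. Mutant bcCML was at least 7.67-fold above mutant AML. Galnt12 exceeded 16 units on only 2 AML arrays, both wild-type, so it passed the filter through bcCML, and no p is given. Galnt9, best known from brain, read between 4.51 and 4.52 units on all 6 bcCML arrays. On wild-type AML arrays it measured 85.1, 106 and 137 units, so bcCML was at least 6.71-fold lower; the gene passed the filter through AML, and no p is given. Galnt11 measured 141, 204 and 141 units on wild-type bcCML arrays, against 388, 313 and 312 on wild-type AML arrays, and was lower (-1.07 ± 0.33, adjusted p = 0.0254), a call that ended without wild-type bcCML array 1 or 3 or wild-type AML array 1 (highest adjusted p 0.082). Galnt4 had no call in either genotype. Galnt7 differed by 0.06 ± 0.14 among mutants, without a call, and was 1.68 ± 0.14 higher in bcCML among wild-type cells (adjusted p = 1.07e-05). Galnt6 was 2.76 ± 0.29 higher in bcCML among mutants (adjusted p = 3.5e-05), and among wild-type cells the difference of 0.78 ± 0.29 did not pass (adjusted p = 0.055).

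The sialidases parted. Neu1 measured 151, 198 and 172 units on mutant bcCML arrays and 284, 252 and 160.0 on wild-type ones. The bcCML minus AML difference was -2.44 ± 0.21 among mutants and -1.59 ± 0.21 among wild-type cells (adjusted p = 1.07e-05 and 0.000269). Neu3 was higher in bcCML by 0.93 ± 0.15 among mutants and 0.97 ± 0.15 among wild-type cells (adjusted p = 0.000508 and 0.000512). Nans was lower in wild-type bcCML, with 839.6, 1092 and 808 units, against 1338, 1598 and 1163 in wild-type AML (-0.58 ± 0.20, adjusted p = 0.0429), and that call ended in 7 of the 12 fits that left out an array (highest adjusted p 0.142). Gne and Cmas were not called in either genotype. Npl was at least 2.93-fold higher in mutant bcCML than in mutant AML, and 0.98 ± 0.19 higher on the log2 scale in wild-type bcCML (adjusted p = 0.00264).

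Of the 9 heparan sulfate genes, Hs2st1 was the 1 called among mutants (1.06 ± 0.17 higher in bcCML, adjusted p = 0.000598), where 23.2% of all genes were higher and 21.9% lower. Among wild-type cells 5 were higher and 0 lower in bcCML, where 17.7% of all genes were higher and 19.3% lower. The 5 include Hs3st1, which passed the filter through bcCML. Hs6st1, a 6-O-sulfotransferase, was higher by 1.23 ± 0.36 (adjusted p = 0.0212), Ndst2 by 1.14 ± 0.34 (adjusted p = 0.0246), Glce by 0.97 ± 0.34 (adjusted p = 0.0466) and Hs2st1 by 0.61 ± 0.17 (adjusted p = 0.0175) in wild-type bcCML. Hs3st1 was at least 1.21-fold higher there, and no AML array read above 4.53 units. Ext1 and Ext2 were not called in either genotype.

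Some members varied widely between replicate arrays. Among the mutant AML arrays the highest value was 56.4 times the lowest for St6gal1, which adds alpha-2,6-linked sialic acid to N-glycans, 51.9 times for Galnt9, 23.2 times for Ext1, 18.5 times for St3gal5 and 10.5 times for St3gal6. In all 5 genes mutant AML array 1 was the lowest and array 2 the highest. St3gal5, the GM3 ganglioside synthase, measured 293, 5432 and 1536 units on mutant AML arrays, against 2460.2, 388 and 3448 on wild-type AML arrays, so that wild-type array 2 was low as well. St6gal1 measured 4.71, 265 and 32.9 units on mutant AML arrays, against 44.4, 10.8 and 23.4 on wild-type ones. The summed monocyte and macrophage markers were likewise lowest on mutant array 1 and highest on array 2 within that group. Among wild-type AML arrays the sum was highest on array 2 (26843 units, against 19105 and 15319). There St3gal5, St6gal1, St3gal6 and Ext1 were lowest on array 2, and Galnt9 on array 1. The part of these markers in the values was not tested. In mutant bcCML St3gal5 lay at 173, 171 and 174 units, the tightest of the 4 groups. The call for St3gal5 between mutant leukaemias (-2.96 ± 0.99, limma adjusted p = 0.0328) ended without mutant AML array 2 (-1.96, adjusted p = 0.116) and became -4.06 without mutant AML array 1 (adjusted p = 0.00397). It was also lost without mutant AML array 3 or any 1 mutant bcCML array. Galnt9 measured 4.49, 233 and 68.1 units on mutant AML arrays, with array 1 at the floor as in bcCML.

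**Figure D5:**
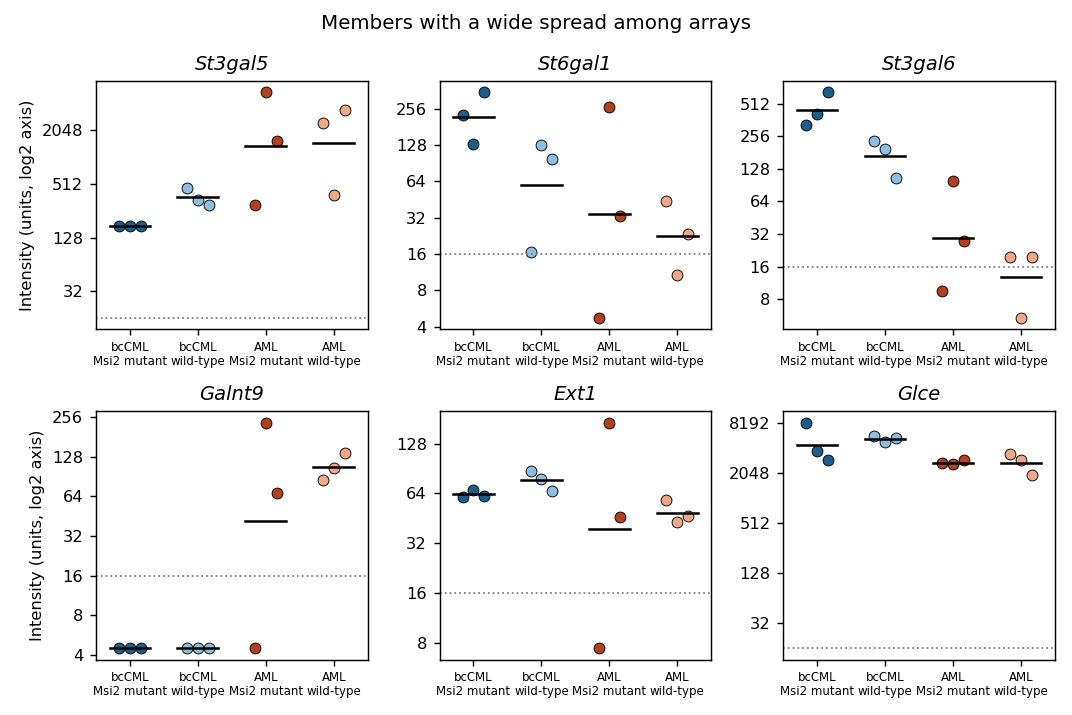
Intensity (log2 axis) of 6 members on each array (points) with the geometric mean of each group (bars), for bcCML (blue) and AML (red), Msi2 mutant left of wild-type, and the filter level of 16 units as a dotted line. St3gal5, St6gal1, St3gal6, Galnt9 and Ext1 spread over at least 10.5-fold among the 3 mutant AML arrays, while Glce spreads there by 1.11-fold.

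Other genes of these pathways, taken from 7 lists, gave no call in either Msi2 comparison or in the shared effect. C1galt1c1, the chaperone of the enzyme that makes core 1 O-glycans, came nearest in AML. It measured 312, 507 and 610.4 units on mutant AML arrays, against 849.9, 1083 and 949.6 on wild-type ones (-1.06 ± 0.25, adjusted p = 0.0722). Between wild-type bcCML and AML, the comparison of all counts that follow, 19.3% of all genes were lower in bcCML and 17.7% higher. Of 10 tested O-glycan elongation genes 4 were lower and 1 higher, and the fucosyltransferase gene Fut4 was different by -3.96 ± 0.42 (adjusted p = 4.89e-05). Of 13 other genes of sialic acid handling 5 were lower and 1 higher, with Ctsa, the partner protein of Neu1 in the lysosome, different by -1.79 ± 0.31 (adjusted p = 0.00132). Siglece, which encodes a receptor that reads sialic acid, read between 4.51 and 4.68 units on wild-type bcCML arrays, against 626 to 967 on wild-type AML arrays. Of 9 tested carriers 2 were higher and 3 lower. Podxl, a sialylated mucin-like surface protein, measured 2309 to 2784 units in wild-type bcCML and 4.52 to 5.34 in wild-type AML. Podxl passed the filter through bcCML, so the carrier counts are descriptions.

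Of 10 tested genes of heparan sulfate editing and breakdown 7 were lower and 0 higher in wild-type bcCML than in wild-type AML (median -1.51), where 19.3% of all genes were lower and 17.7% higher. Hpse, the heparanase gene, measured 13.6, 28.3 and 14.6 units there, against 983, 2463 and 1556 (log2 difference -6.45 ± 0.68). Hpse and Arsg, both among the 10, passed the filter through AML. No p is therefore given for Hpse, and the count of lower genes is a description. Of 13 other genes of linkage and chain assembly 5 were lower and 0 higher, and Pxylp1, whose phosphatase acts on the linkage xylose, differed by -3.71 ± 0.25 (adjusted p = 2.07e-06). Of 11 core proteins 2 were higher and 3 lower, a description because Col18a1 passed the filter through bcCML. The glypican gene Gpc1 measured 78.2, 61.6 and 46.5 units in wild-type bcCML, against 7220, 6077 and 7153 in wild-type AML (-6.81 ± 0.25, adjusted p = 1.69e-08). The betaglycan gene Tgfbr3 was higher in bcCML by 6.08 ± 0.73 (adjusted p = 0.000121). Cell type markers moved with these differences. In wild-type bcCML 7 of 8 monocyte and macrophage genes and 6 of 6 tested neutrophil genes were lower than in wild-type AML, where 19.3% of all genes were. The megakaryocyte genes were higher in 5 of 5, where 17.7% of all genes were. Genes such as Ppbp and Itga2b passed the filter through bcCML, and Csf1r and Cd14 through AML, so these counts are descriptions. Summed neutrophil markers ran from 1803 to 3447 units in wild-type bcCML and from 67735 to 81346 in wild-type AML, and summed megakaryocyte markers from 3852 to 8498 and from 29.4 to 41.1. Their part in the differences between the leukaemias was not tested.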

How the data were processed

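RNA from 12 sorted leukaemic stem cell samples was measured on Affymetrix arrays. The deposited values are linear intensities, 1 per probe set and array, made by the authors with GCRMA (named in the submitters' processing notes), whose version is not given in the sources used here. The median intensity per array was 13.1 to 13.8, and the number of arrays limits the precision. Of 45037 probe sets, 34945 had 1 symbol in the platform annotation, 932 had several and 9160 were not listed.

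Intensities were converted to log2 with no pseudocount. Probe sets above 16 units (log2 of 4) on at least 3 arrays were kept, and the one with the highest mean stood for its gene. limma 3.58.1 (R 4.3.3) fitted the 4 group means over all 12 arrays, with empirical Bayes variances and Benjamini-Hochberg adjustment over 10817 genes. Every adjusted p comes from that fit unless another is named, and is called under 0.05. A fold against a group below 16 units on all 3 arrays is a bound. The script was tested on simulated data.

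The members and gene lists were chosen with earlier results of these data known. Genes named were members called in a comparison (at most 6 rises and 6 falls by size), members whose mutant and wild-type arrays did not overlap (at most 8 by p), members named by earlier results, the brightest 2 of each family, and at most 3 called genes per other list by p. Members outside that rule, those that spread most among replicates and those without a call included, and other list genes were chosen after their values were seen. Same-numbered samples deviated together in bcCML (correlations 0.278 to 0.396) but not in AML (-0.121 to -0.030), and no label says what a number shares; the main fit has no block, and the fit with it stands beside the results it changes. Alternatives changed the filter, offset, normalization, probe set choice, variance model, replicate block, arrays fitted and single arrays left out. Promoters came from RefSeq (GRCm38.p6), without a genome.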

Additional observations from a re-analysis of the deposited data

How the results depend on the processing

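For 44 pairs of a member and a comparison, 18 to 21 alternative fits each gave 885 alternative values in all. Of these values 816 kept their direction and side of the threshold, 66 lost the call, 2 gained one and 1 reversed. The count of 3 members called in AML became 0 where only the 2 groups were fitted and 0 with a replicate block in the 6 AML arrays (a fit chosen after seeing the data), against 3 with a replicate block over all 12 arrays, and leaving out single arrays gave 3 to 4. The 1 call in bcCML became 0 with no filter, with log2 above 5, with trend and robust variances, with only the 2 groups, and with a replicate block in the 6 bcCML arrays, was 1 with the block over all arrays, and was 1 to 2 leaving out single arrays. The 5 shared calls became 3 with no filter and 0 with the replicate block, and 2 to 5 leaving out single arrays. The 0 calls for the difference between leukaemias became 1 with no filter, log2 above 5, an offset of 16 or quantile normalization, and 0 to 2 leaving out single arrays. Counts between the leukaemias stayed within 1.5 times over all alternatives, single arrays left out included: 13 to 18 among mutants and 17 to 25 among wild-type cells. Calls over all genes moved as well. Leaving out single arrays gave 43 to 182 in AML, 7 to 22 in bcCML, 4 to 122 shared and 0 to 21 for the difference. The main fit gave 164, 15, 51 and 0. Fits to only the 2 groups called 0 genes of all in AML and in bcCML, with or without the block. With no filter another probe set of St6galnac3 was used, and its shared difference reversed to 0.11. Fits to 6 arrays have fewer residual degrees of freedom, and the cause of the other changes was not tested. Values near 16 units lie close to the array floor, so small folds there are the least certain.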
